A study of Mus musculus with 12 samples.

Results

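The 10 core circadian clock genes Per1, Per2, Per3, Cry1, Cry2, Arntl, Clock, Npas2, Nr1d1 and Nr1d2 were followed in the lungs of newborn C57/Bl6 mice. They were chosen by name, as the transcription factors and repressors that form the clock's feedback loops, and all 10 of the 10 were found among the 23478 genes of the count table and had enough counts to be tested. On day 0 the pups were injected intraperitoneally with 25 mg/kg of aurothioglucose (ATG), a gold drug known as an inhibitor of thioredoxin reductase, or with saline, and were then kept in oxygen above 95% (hyperoxia) or in room air for 72 h. The 4 groups of 3 samples were ATG hyperoxia, saline hyperoxia, ATG room air and saline room air, and a number after a group's name is that of the library. RNA came from whole lungs after the lavage fluid had been taken off, and no genetic change is given for any group. Whole-lung RNA does not separate fewer cells of a type from less RNA per cell. The labels do not give the hour of the day at which lungs were taken, so a shift in the phase of the clock and a change in a gene's mean level cannot be told apart. They do not say whether samples came from separate animals or litters, so the p-values measure the spread between these samples, which may be technical. By sex-linked counts, ATG hyperoxia, saline hyperoxia and ATG room air each held both sexes. The samples of each of these groups thus did not all come from 1 animal.

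In the mammalian clock, a dimer of BMAL1 (encoded by Arntl) with CLOCK, or with the related NPAS2, binds E-box sequences and switches on the Per and Cry genes, whose proteins return to the nucleus and repress that dimer. The same dimer drives Nr1d1 and Nr1d2, which encode the repressors REV-ERB alpha and REV-ERB beta, and these hold down Arntl through response elements shared with the ROR activators. The clock runs in many cell types of the lung, among them airway epithelium and macrophages, and its factors are known to shape inflammatory responses there.

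Total counts were 18009965 to 20486735 in ATG hyperoxia, 16490223 to 19267023 in saline hyperoxia, 14589812 to 17368904 in ATG room air and 14331749 to 15916703 in saline room air. All 6 lung markers were present in every library, with summed levels of 17510 to 26794 CPM (counts scaled to the size of the library, after TMM). In hyperoxia, 2 libraries stood apart for the 10 heart muscle markers, with summed levels of 7045 CPM in ATG hyperoxia 2 and 3195 CPM in saline hyperoxia 2, where the remaining 10 libraries held 430 to 988 CPM. Saline hyperoxia 1 stood apart for the 7 skeletal muscle markers, at 361 CPM against 20.8 to 62.0 CPM elsewhere. The 6 thymocyte markers were highest in saline hyperoxia 2 (61.4 CPM) and saline hyperoxia 3 (21.7 CPM), against 1.35 to 12.4 CPM elsewhere. Leaving out the 3 heart- or muscle-rich libraries keeps saline hyperoxia 3 as the only saline hyperoxia library, so that setting does not remove this difference. By their sex-linked counts, ATG hyperoxia held 1 female and 2 males, saline hyperoxia 2 females and 1 male, ATG room air 2 females and 1 male, and saline room air 3 males. Because saline room air held only males, hyperoxia after saline and ATG in room air are partly confounded with sex. With sex as a covariate, edgeR QL called 2 clock genes for hyperoxia after saline and 0 for ATG in room air, as without it. Some clock genes' values for hyperoxia moved by more than 1.5 times, or gained or lost a call, without the 2 heart-rich libraries. Some did so without these and the muscle-rich one. Many of these values are given with the gene, but not all.

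Hyperoxia against room air addressed how the newborn lung's clock genes stood after 3 days of high oxygen, and the clock genes that passed the test were all higher in hyperoxia. After ATG, Per2, Per3, Cry1 and Nr1d2 rose, by 1.80-fold, 1.80-fold, 1.39-fold and 1.41-fold. After saline, Cry1 and Clock rose, by 1.40-fold and 1.37-fold. Arntl and Npas2, which encode BMAL1 and the partner that can stand in for CLOCK, passed in neither. Of the 10 genes 4 rose after ATG, where 5.41% of the 15761 genes tested rose, and 2 rose after saline, where 4.70% did. No clock gene fell in hyperoxia. At an unadjusted p under 0.05, edgeR QL counted 5 of the 10 as higher after ATG, where it counted 11.9% of all genes tested, and 5 of the 10 as higher after saline, where it counted 11.7%. With both injections averaged, 5 of the 10 rose (Per2, Per3, Cry1, Clock and Nr1d2), beside 11.0% of all genes tested. The median log2 fold change of the 10 genes was 0.39 after ATG and 0.23 after saline, and that of all genes tested was 0.00 after ATG and -0.00 after saline. These are edgeR quasi-likelihood tests (edgeR QL) fitted over all 12 libraries, with Benjamini-Hochberg adjustment over all genes tested and a threshold of 0.05. The 2 oxygen comparisons use different libraries, so they share no controls.

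**Figure D1:**
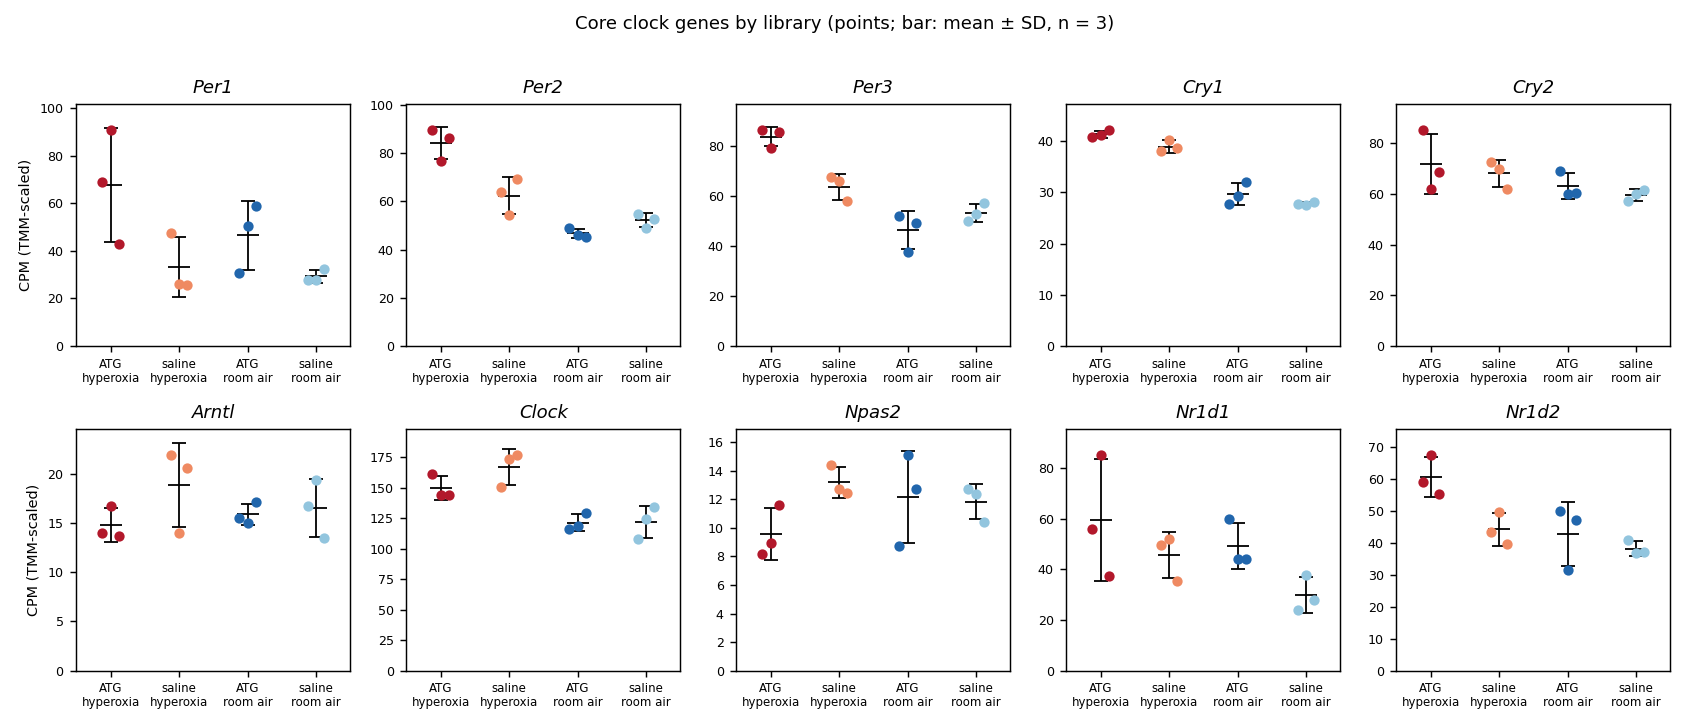
TMM-scaled CPM (vertical axis, from 0, its own scale in each panel) of the 10 clock genes in the 4 groups (horizontal axis), with 1 point per library and bars for the mean and SD of 3 libraries. Cry1 sat between 38.0 and 42.1 CPM in the 6 hyperoxia libraries and between 27.5 and 32.0 CPM in the 6 room air libraries, while Arntl overlapped between all groups.

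The Per genes encode the period proteins, the repressors whose build-up and decay time the loop. Per2, on chromosome 1 (91415977 to 91459351, minus strand, GRCm38.p6, the assembly also called mm10), stood at 89.6, 76.9 and 86.4 CPM in ATG hyperoxia, 63.8, 54.3 and 69.3 CPM in saline hyperoxia lungs, 48.9, 46.3 and 45.2 CPM in ATG room air, and 54.7, 49.0 and 52.8 CPM in saline room air. The 3 ATG hyperoxia libraries lay above all 9 others, and saline hyperoxia 2 was the only saline hyperoxia library inside the saline room air range. After ATG, Per2 was higher in hyperoxia by 0.85 on the log2 scale (SE 0.10, edgeR QL adjusted p = 0.000138). After saline the log2 fold change was 0.26 (SE 0.10, edgeR QL adjusted p = 0.128), which did not pass. Without the 2 heart-rich libraries it was 0.36 and passed (edgeR QL adjusted p = 0.0296), as it did without saline hyperoxia 2 alone (adjusted p = 0.0438), while without all 3 heart- or muscle-rich libraries it was 0.43 and did not pass (adjusted p = 0.0677).

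Per3, on chromosome 4 (150997018 to 151044707, minus strand), encodes the third period protein, whose part in the core loop is smaller. It stood at 86.3, 79.2 and 85.5 CPM in ATG hyperoxia, 67.4, 66.0 and 57.8 CPM in saline hyperoxia lungs, 52.1, 37.6 and 49.3 CPM in ATG room air, and 50.2, 52.6 and 57.3 CPM in saline room air. As for Per2, the ATG hyperoxia libraries were the 3 highest of the 12, and every hyperoxia library lay above every room air library. After ATG it was higher in hyperoxia by 0.85 on the log2 scale (SE 0.11, edgeR QL adjusted p = 0.000378). After saline the log2 fold change was 0.26 (SE 0.11, edgeR QL adjusted p = 0.194), and the call was not made although the groups did not overlap. The 2 higher saline hyperoxia libraries were the muscle-rich and the heart-rich one, and the value after saline was 0.13 without the 3 heart- or muscle-rich libraries (edgeR QL adjusted p = 0.728) and 0.10 with sex as a covariate (adjusted p = 0.649).

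Per1, on chromosome 11 (69095108 to 69109965, plus strand), encodes the period protein whose gene also answers quickly to glucocorticoid, cAMP and stress signals. Its levels were 68.8, 90.7 and 43.1 CPM in ATG hyperoxia, 47.5, 26.0 and 25.6 CPM in saline hyperoxia lungs, 30.6, 50.6 and 58.7 CPM in ATG room air, and 27.9, 27.7 and 32.5 CPM in saline room air. Per1 spread more between replicates than any other of the 10 genes, with a tagwise biological coefficient of variation of 24.5%, against 9.58% for Per2 and 10.6% for Per3, and 15.0% at the median of all genes tested. The log2 fold changes of 0.53 after ATG (SE 0.28, edgeR QL adjusted p = 0.261) and 0.17 after saline (SE 0.29, edgeR QL adjusted p = 0.777) did not pass. Without the 2 heart-rich libraries the value was 0.28 after ATG and 0.33 after saline. Without these and saline hyperoxia 1, the library rich in skeletal muscle markers, it was -0.18 after saline, so the direction rests on that library, and 0.05 with injections averaged (0.35 over all libraries), none of them past the threshold.

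The cryptochromes CRY1 and CRY2 bind the period proteins and repress the BMAL1 and CLOCK dimer. Cry1, on chromosome 10 (85131700 to 85185054, minus strand), stood at 40.8, 41.1 and 42.1 CPM in ATG hyperoxia, 38.0, 40.2 and 38.5 CPM in saline hyperoxia lungs, 27.8, 29.3 and 32.0 CPM in ATG room air, and 27.7, 27.5 and 28.1 CPM in saline room air. Every hyperoxia library lay above every room air library, and within each group the spread was small, at most 2.14 CPM (SD, n = 3). Cry1 was higher in hyperoxia by 0.48 on the log2 scale after ATG (SE 0.09, edgeR QL adjusted p = 0.00353) and by 0.49 after saline (SE 0.09, edgeR QL adjusted p = 0.00483). Without the 3 heart- or muscle-rich libraries, which leaves 1 saline hyperoxia library, the value after saline was 0.49 and no longer passed (edgeR QL adjusted p = 0.0787).

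Cry2, on chromosome 2 (92403646 to 92434085, minus strand), stood at 85.1, 62.1 and 68.4 CPM in ATG hyperoxia, 72.4, 69.6 and 62.0 CPM in saline hyperoxia lungs, 69.1, 59.8 and 60.1 CPM in ATG room air, and 57.0, 59.9 and 61.5 CPM in saline room air. The saline hyperoxia libraries all lay above the saline room air libraries, while the ATG groups overlapped. Its log2 fold changes were 0.19 after ATG (95% interval -0.05 to 0.43) and 0.19 after saline (-0.05 to 0.43), and neither passed. After ATG it was 0.30 without the 2 heart-rich libraries and 0.06 without ATG hyperoxia 1, and after saline it was 0.07 without the 3 heart- or muscle-rich libraries, none of which passed. With injections averaged it was 0.19 (edgeR QL adjusted p = 0.101). Over 20 other settings it ran from 0.13 to 0.25 and passed in 2, at 0.24 without the 2 heart-rich libraries (edgeR QL adjusted p = 0.0463) and at 0.25 without ATG hyperoxia 2 alone (adjusted p = 0.0278).

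**Figure D2:**
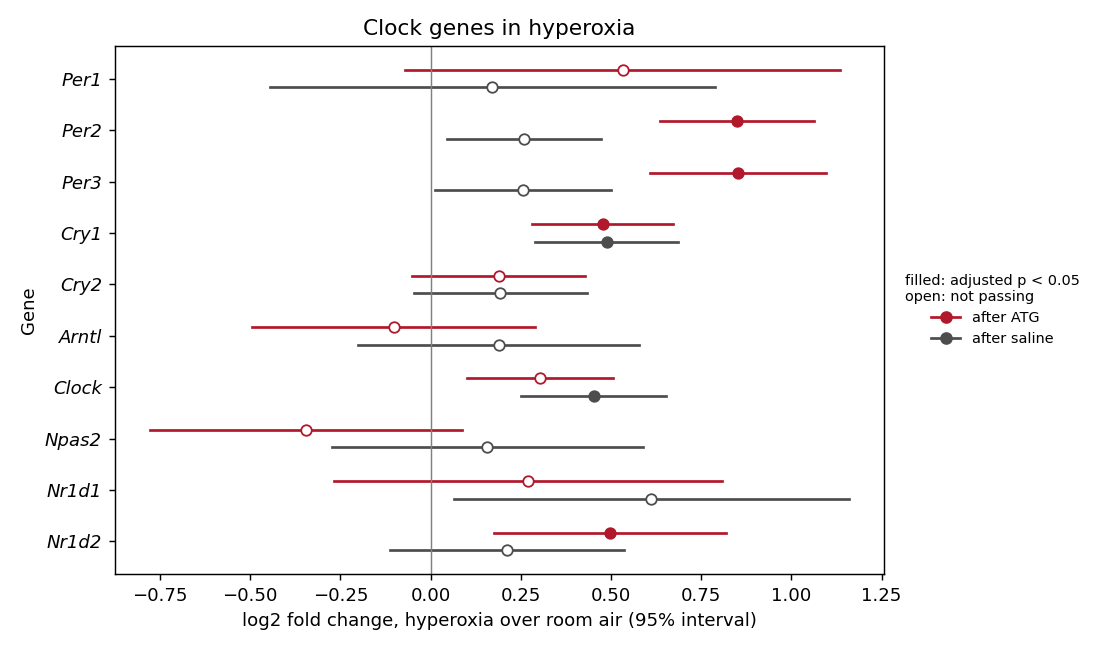
Log2 fold change of hyperoxia over room air (horizontal axis, with 95% intervals) for each clock gene (vertical axis), after ATG and after saline, with filled points for an edgeR QL adjusted p under 0.05. Per2 and Per3 lie near 0.85 after ATG and near 0.26 after saline, while Cry1 lies near 0.48 after both.

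CLOCK, BMAL1 and NPAS2 are the activators of the loop. Clock, on chromosome 5 (76209868 to 76305603, minus strand), stood at 161, 144 and 144 CPM in ATG hyperoxia, 150.5, 174 and 177 CPM in saline hyperoxia lungs, 116, 118 and 129 CPM in ATG room air, and 108, 124 and 134 CPM in saline room air. All 6 hyperoxia libraries lay above all 6 room air libraries. Clock was higher in hyperoxia after saline by 0.45 on the log2 scale (SE 0.09, edgeR QL adjusted p = 0.00812). After ATG the log2 fold change was 0.30 (SE 0.09, edgeR QL adjusted p = 0.0513), just short of the threshold, and it passed by DESeq2 (0.31, adjusted p = 0.022). It also passed by edgeR QL on leaving out saline room air 1 or 3 or saline hyperoxia 1 or 3, each at 0.32, with adjusted p between 0.0333 and 0.0484, and without the 3 heart- or muscle-rich libraries (0.36, adjusted p = 0.0411), and in 8 of 21 other settings in all.

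Arntl, on chromosome 7 (113178471 to 113314126, plus strand), encodes BMAL1, whose loss alone is known to stop the loop in mice. It stood at 14.0, 16.7 and 13.6 CPM in ATG hyperoxia, 21.9, 13.9 and 20.6 CPM in saline hyperoxia lungs, 15.5, 14.9 and 17.1 CPM in ATG room air, and 16.7, 19.4 and 13.4 CPM in saline room air, and every group overlapped every other. The log2 fold change of hyperoxia was -0.10 after ATG (95% interval -0.49 to 0.29) and 0.19 after saline (-0.20 to 0.58), neither past the threshold. Without the 2 heart-rich libraries these were -0.18 and 0.38, which did not pass either. Npas2, on chromosome 1 (39193702 to 39363240, plus strand), encodes an activator that can stand in for CLOCK, and it stood at 8.16, 8.97 and 11.6 CPM in ATG hyperoxia, 14.4, 12.7 and 12.4 CPM in saline hyperoxia lungs, 8.75, 15.1 and 12.7 CPM in ATG room air, and 12.7, 12.3 and 10.4 CPM in saline room air. Its oxygen groups overlapped after either injection, and its log2 fold change was -0.35 after ATG (-0.78 to 0.09) and 0.16 after saline (-0.27 to 0.59), neither past the threshold, with 0.09 after saline without the 3 heart- or muscle-rich libraries.

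REV-ERB alpha and REV-ERB beta are haem-binding nuclear receptors that repress Arntl and many metabolic and inflammatory genes. Nr1d2, on chromosome 14 (18204056 to 18239106, minus strand), stood at 59.1, 67.7 and 55.3 CPM in ATG hyperoxia, 43.4, 49.8 and 39.6 CPM in saline hyperoxia lungs, 50.2, 31.5 and 47.2 CPM in ATG room air, and 40.9, 36.7 and 37.2 CPM in saline room air. The ATG hyperoxia libraries were the 3 highest of the 12. Nr1d2 was higher in hyperoxia after ATG by 0.50 on the log2 scale (SE 0.15, edgeR QL adjusted p = 0.0453), a call that stood under 12 of 21 other settings. It did not pass without the 2 heart-rich libraries (0.43, edgeR QL adjusted p = 0.105), ATG hyperoxia 1 (0.53, adjusted p = 0.0718) or ATG hyperoxia 2 (0.43, adjusted p = 0.121). It also missed the threshold without ATG room air 2 (0.33, adjusted p = 0.0927), ATG room air 3 (0.59, adjusted p = 0.0524) or saline room air 2 (0.51, adjusted p = 0.0507). Nor did it pass with the replicate block, on only the 6 samples compared, or without the 3 heart- or muscle-rich libraries. With injections averaged it was 0.35 (edgeR QL adjusted p = 0.0269), and it missed the threshold without the 2 heart-rich libraries (0.28, adjusted p = 0.0891), without these and the muscle-rich one (0.25, adjusted p = 0.206), without saline hyperoxia 2 (0.32, adjusted p = 0.0515) or without saline room air 2 (0.35, adjusted p = 0.0511). After saline the log2 fold change was 0.21 (SE 0.15, edgeR QL adjusted p = 0.448), and 0.07 without the 3 heart- or muscle-rich libraries.

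Nr1d1, on chromosome 11 (98767932 to 98775377, minus strand), stood at 55.9, 85.2 and 37.2 CPM in ATG hyperoxia, 49.7, 51.8 and 35.2 CPM in saline hyperoxia lungs, 59.8, 43.9 and 44.2 CPM in ATG room air, and 23.9, 37.8 and 27.7 CPM in saline room air. The highest library was ATG hyperoxia 2, the one richest in heart muscle markers, and the lowest was saline room air 1. The log2 fold changes of 0.27 after ATG (SE 0.25, edgeR QL adjusted p = 0.557) and 0.61 after saline (SE 0.26, edgeR QL adjusted p = 0.168) did not pass, and the value after ATG was -0.07 without ATG hyperoxia 2. After saline it was 0.26 without the 3 heart- or muscle-rich libraries (edgeR QL adjusted p = 0.659). With injections averaged it was 0.44 (edgeR QL adjusted p = 0.0953). That average was 0.23 without the 2 heart-rich libraries (adjusted p = 0.331) and 0.10 without the 3 (adjusted p = 0.75), and it passed in 1 of 20 other settings, without ATG hyperoxia 3 (0.57, adjusted p = 0.0155). Nr1d1 shares 263 bases of exon, 8.55% of its exon length, with Thra, a thyroid hormone receptor gene on the opposite strand. How strand entered the counting is not given in the sources used here, so the share of Nr1d1 counts affected is not known. Thra itself stood between 44.5 and 62.0 CPM in the 12 libraries. Cry2 shares 295 bases of exon with the antisense transcript D930015M05Rik in the same way, and Arntl shares 33 bases with an antisense transcript.

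By groups that did not overlap at all, 5 of the 10 genes were higher in hyperoxia after ATG (Per2, Per3, Cry1, Clock and Nr1d2), where 13.7% of all genes tested were. After saline 4 were (Per3, Cry1, Cry2 and Clock), where 14.6% of all genes tested were. In both, none was lower in every hyperoxia library. The 6 immediate early genes answer to handling and stress. Of these, 1 passed as higher in hyperoxia after ATG, beside 5.41% of all genes tested, and 2 after saline, beside 4.70%. Without overlap, 1 of the 6 was higher after ATG and 6 after saline, beside 13.7% and 14.6% of all genes tested. At an unadjusted p under 0.05, edgeR QL counted 1 as higher after ATG and 6 after saline, beside 11.9% and 11.7%. The summed level of the 6 immediate early genes was 302 to 458 CPM in ATG hyperoxia and 240 to 556 CPM in saline hyperoxia lungs. It was 120 to 263 CPM in ATG room air and 153 to 210 CPM in saline room air. The part of these genes in the clock genes' result was not tested. Of the 6 lung markers, 0 passed for hyperoxia after ATG and 2 after saline, where the surfactant genes Sftpb (0.27, edgeR QL adjusted p = 0.0408) and Sftpc (0.24, adjusted p = 0.0473) were higher. In either direction, 1838 of the 15761 genes tested passed after ATG and 1449 after saline. With injections averaged, Ager of the flat alveolar cells was higher (0.31, edgeR QL adjusted p = 0.0293) and Scgb1a1 of the airway club cells lower (-0.49, adjusted p = 0.00698). In that average, 3526 of the 15761 genes tested passed in either direction. Scgb1a1 stood at 8239 to 9221 CPM in ATG hyperoxia, 8450 to 8842 CPM in saline hyperoxia lungs, 9578 to 16648 CPM in ATG room air and 9518 to 13898 CPM in saline room air. The part of these cell type markers in the clock genes' result was not tested.

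Promoter sequences are shown because the loop acts through short DNA elements near the start of its own genes. RefSeq promoter windows on GRCm38.p6 (250 bases before to 50 after the annotated start) were found for 9 of the 10 genes, 13 windows in all, and Per2 had no entry. Motifs were searched on both strands, and none overlapped another in these windows. The E-box was searched as CACGTG. The variant called the E'-box was searched as CACGTT, whose reverse complement is what stands on the strand shown. The D-box, bound by the DBP family, was searched as TTATGTAA and as TTACGTAA. The RORE core, bound by REV-ERB and ROR, was searched as TAGGTCA and also with its second base replaced, as TGGGTCA. The cAMP response element was searched as TGACGTCA. The Cry1 window held an E-box at -60 and an E'-box at -79, and the Per3 window held D-boxes at -205 and -158. A lone motif stood in 1 window each of Per1 (E-box, -166), Cry2 (E'-box, -166), Nr1d1 (E'-box, -28) and Arntl (RORE core, 30 bases after the start). The 250 bases before the start of Cry1 and Per3, and 26 bases around each of the other sites, read 5′ to 3′ on the gene's strand with the motifs in capitals:
Cry1 promoter, chr10:85185055-85185304 on the minus strand: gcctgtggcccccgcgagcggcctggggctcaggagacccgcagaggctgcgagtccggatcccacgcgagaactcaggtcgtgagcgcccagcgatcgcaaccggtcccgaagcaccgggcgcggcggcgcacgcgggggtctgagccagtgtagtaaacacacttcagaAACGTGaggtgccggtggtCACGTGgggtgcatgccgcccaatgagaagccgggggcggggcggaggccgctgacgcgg
Per3 promoter, chr4:151044666-151044915 on the minus strand: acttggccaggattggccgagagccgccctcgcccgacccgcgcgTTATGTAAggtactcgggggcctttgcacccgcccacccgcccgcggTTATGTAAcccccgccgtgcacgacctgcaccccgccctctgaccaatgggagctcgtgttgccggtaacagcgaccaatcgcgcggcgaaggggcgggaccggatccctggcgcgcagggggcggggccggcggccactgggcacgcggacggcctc
Per1 E-box site, chr11:69098774-69098799 on the plus strand: acccaagtcCACGTGcagggatgtgt
Cry2 E'-box site, chr2:92434219-92434244 on the minus strand: catggtgggAACGTGagggggcggag
Nr1d1 E'-box site, chr11:98775389-98775414 on the minus strand: acagatctcAACGTGccggctgctgg
Arntl RORE site, chr7:113207532-113207557 on the plus strand: ggcagaaagTAGGTCAgggacggagg
Of all 32851 RefSeq windows, 7.15% held the E-box, 4.68% the E'-box, 1.06% the D-box, 6.45% the RORE core and 1.79% the cAMP response element, and none of the clock gene windows held the last. The Clock, Npas2 and Nr1d2 windows held none of these letters.

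ATG against saline addressed whether the injected drug was followed by other levels of the same genes, and no clock gene passed the test in any of its forms. In hyperoxia 0 of the 10 genes passed by edgeR QL, DESeq2 or limma-voom, and edgeR QL called 0.00634% of all genes tested, which is 1 gene. In room air 0 of the 10 passed by the same 3 tools, and edgeR QL called 0% of all genes tested. With oxygen conditions averaged 0 of the 10 passed by the same 3 tools, and edgeR QL called 0.0444% of all genes, which is 7. At an unadjusted p under 0.05, edgeR QL counted 5 clock genes and 5.69% of all genes in hyperoxia, 2 clock genes and 6.02% of all genes in room air, and 3 clock genes and 8.47% of all genes in the average. The median log2 fold change of ATG over the 10 genes was 0.23 in hyperoxia and 0.06 in room air, and that of all genes tested was 0.00 in hyperoxia and 0.01 in room air.

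In hyperoxia, the 5 clock genes under an unadjusted 0.05 were Per1, Per2, Per3, Nr1d2 and Npas2. Per1 had the largest log2 fold change of ATG, 1.03 (95% interval 0.42 to 1.64, edgeR QL adjusted p = 0.608), and its highest saline hyperoxia library (47.5 CPM) lay above its lowest ATG hyperoxia library (43.1 CPM). Its value was 0.61 without the 2 heart-rich libraries (adjusted p = 0.989), which include its highest, ATG hyperoxia 2, and ran up to 1.39 without saline hyperoxia 1 (adjusted p = 0.276). Per2 stood at 0.43 (0.22 to 0.64, edgeR QL adjusted p = 0.567) and Per3 at 0.39 (0.15 to 0.63, edgeR QL adjusted p = 0.623), each with all 3 ATG libraries above all 3 saline libraries. Nr1d2 stood at 0.45 (0.13 to 0.78, edgeR QL adjusted p = 0.714), also without overlap, and Npas2 at -0.46 (-0.89 to -0.03, edgeR QL adjusted p = 0.85), with all 3 ATG libraries below all 3 saline libraries. Together with Cry1, whose ATG libraries were higher by 0.09 on the log2 scale, 4 of the 10 genes were higher after ATG without overlap, where 5.55% of all genes tested were, and Npas2 was lower, where 5.54% were. The 6 thymocyte markers had summed levels of 1.35 to 3.25 CPM in ATG hyperoxia and 3.96 to 61.4 CPM in saline hyperoxia lungs, without overlap. Of the 4 of these markers that were tested, 0 passed for ATG in hyperoxia by edgeR QL. All 4 had an unadjusted p under 0.05, beside 5.69% of all genes tested. The defining gene Rag1 stood at 0.449 to 1.77 CPM in ATG hyperoxia and at 2.68, 39.2 and 15.0 CPM in saline hyperoxia 1 to 3. The part of these markers in the clock genes' values was not tested.

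In room air, Nr1d1 had the largest log2 fold change of ATG, 0.72 (95% interval 0.18 to 1.27, edgeR QL adjusted p = 0.818), with its 3 ATG libraries above its 3 saline libraries. Per1 stood at 0.67 (0.05 to 1.28, edgeR QL adjusted p = 0.818), with ATG room air 1 (30.6 CPM) inside the range of the saline room air libraries. Per2 was lower in all 3 ATG libraries, with a log2 fold change of -0.16 (-0.37 to 0.06, edgeR QL adjusted p = 0.884). Nr1d1 was the 1 clock gene higher after ATG without overlap, where 6.26% of all genes tested were, and Per2 the 1 that was lower, where 5.72% were. Like Per1, 10 of the 13 immediate early and glucocorticoid-responsive genes were lowest in ATG room air 1 among the 3 ATG room air libraries, and Fosb, Fkbp5 and Klf9 were not. Among the 3 ATG hyperoxia libraries, Per1 was highest in ATG hyperoxia 2. Of the 7 glucocorticoid-responsive genes, 4 were highest there (Fkbp5, Tsc22d3, Zbtb16 and Klf9) and 3 lowest (Sgk1, Ddit4 and Dusp1). Of the 6 immediate early genes, 1 was highest there and 2 were lowest. Nr4a1, an immediate early gene of the nuclear receptor family, stood at 19.2, 72.0 and 98.8 CPM in ATG room air 1 to 3, against 16.8 to 20.1 CPM in saline room air. Dusp1, a phosphatase gene induced by stress and glucocorticoid, stood at 175, 477 and 424 CPM in ATG room air 1 to 3, against 174 to 241 CPM in saline room air. The kinase gene Sgk1 stood at 157, 229 and 249.7 CPM in ATG room air 1 to 3, against 141 to 154 CPM in saline room air. None of these 3 passed for ATG in room air, and their part in the Per1 values was not tested. Tsc22d3 and Egr1 went the other way, with means of 23.1 and 97.6 CPM in ATG room air and 28.0 and 116 CPM in saline room air. For ATG in room air, 6 of the 7 glucocorticoid-responsive genes had positive log2 fold changes (median 0.16), and 5 of the 6 immediate early genes (median 0.26). So did 8320 of the 15761 genes tested (median 0.01). At an unadjusted p under 0.05, edgeR QL counted 3 of the 7 and 1 of the 6, beside 6.02% of all genes tested. The summed level of the 7 glucocorticoid-responsive genes was 421 to 805 CPM in ATG room air and 422 to 491 CPM in saline room air. Most of that sum was Dusp1 and Sgk1 in each of these libraries.

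**Figure D3:**
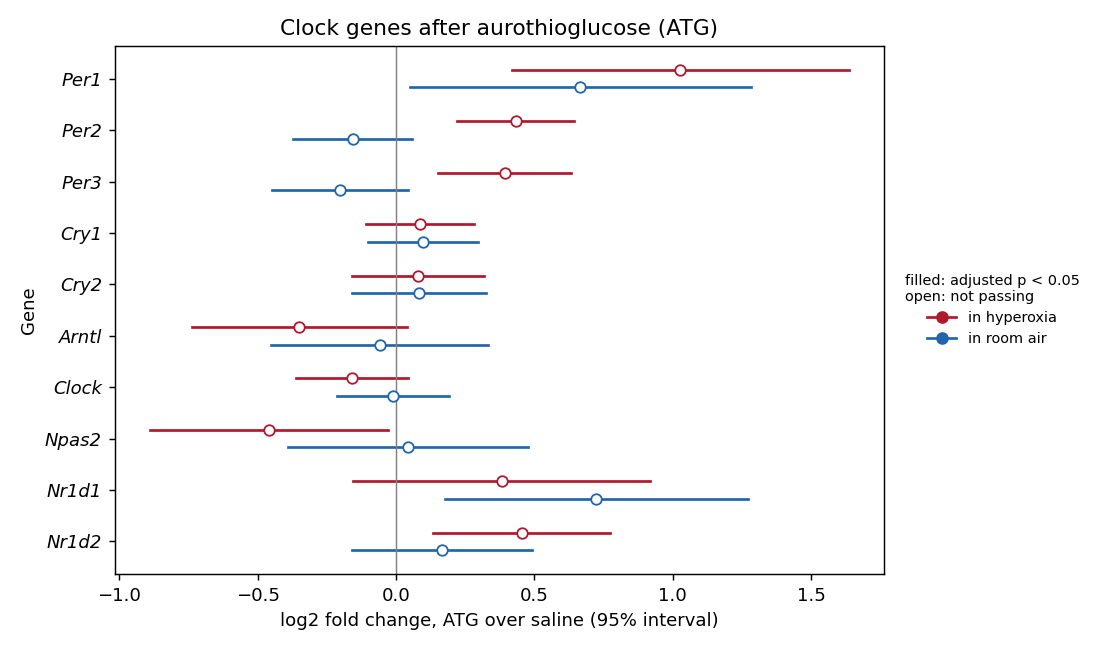
Log2 fold change of ATG over saline (horizontal axis, with 95% intervals) for each clock gene (vertical axis), in hyperoxia and in room air, where filled points would mark an edgeR QL adjusted p under 0.05. Every point is open, and Per2 and Per3 lie to the right of 0 in hyperoxia and to the left of it in room air.

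Whether the effect of ATG differed between hyperoxia and room air was tested by the interaction, where 0 of the 10 clock genes passed by edgeR QL, DESeq2 or limma-voom and edgeR QL called 0% of all genes tested. At an unadjusted p under 0.05 edgeR QL counted 2 of the 10, Per2 and Per3, where it counted 2.95% of all genes tested. The ATG effect on Per2 was larger in hyperoxia than in room air by 0.59 on the log2 scale (95% interval 0.29 to 0.89, edgeR QL unadjusted p = 0.000844, adjusted p = 1). That on Per3 was larger by 0.60 (0.25 to 0.94, edgeR QL unadjusted p = 0.00223, adjusted p = 1). The difference between the hyperoxia log2 fold changes after ATG and after saline is the same interaction, so it did not pass either. The comparison of ATG in hyperoxia and that of hyperoxia after ATG share the ATG hyperoxia libraries. For Clock, called after saline and not after ATG, the interaction was -0.15 (-0.43 to 0.14, and -0.09 without the 2 heart-rich libraries), and for Cry1 it was -0.01 (-0.29 to 0.27).

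Because Per2, Per3 and Cry1 were higher in hyperoxia and Arntl did not pass, the ratios of Per1, Per2, Per3, Cry1 and Nr1d1 to Arntl were taken within each library, where the scaling of the library cancels out. Per2 over Arntl was 6.42, 4.60 and 6.33 in ATG hyperoxia, 2.91, 3.90 and 3.37 in saline hyperoxia, 3.15, 3.10 and 2.65 in ATG room air, and 3.27, 2.53 and 3.93 in saline room air. The ATG hyperoxia lungs thus stood above all other libraries, while the other 3 groups overlapped. Per3 over Arntl was 6.18, 4.74 and 6.27 in ATG hyperoxia, 3.07, 4.74 and 2.81 in saline hyperoxia, 3.36, 2.52 and 2.89 in ATG room air, and 3.00, 2.72 and 4.26 in saline room air, so that saline hyperoxia 2 reached the lowest ATG hyperoxia library. Cry1 over Arntl ran from 2.46 to 3.09 in ATG hyperoxia, 1.73 to 2.89 in saline hyperoxia, 1.79 to 1.96 in ATG room air and 1.42 to 2.09 in saline room air. Per1 over Arntl ran from 3.16 to 5.43 in ATG hyperoxia, 1.24 to 2.17 in saline hyperoxia, 1.97 to 3.44 in ATG room air and 1.43 to 2.42 in saline room air. Nr1d1 over Arntl ran from 2.73 to 5.10 in ATG hyperoxia, 1.71 to 3.72 in saline hyperoxia, 2.59 to 3.85 in ATG room air and 1.43 to 2.06 in saline room air. These ratios were chosen for how the genes stood and carry no test.

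**Figure D4:**
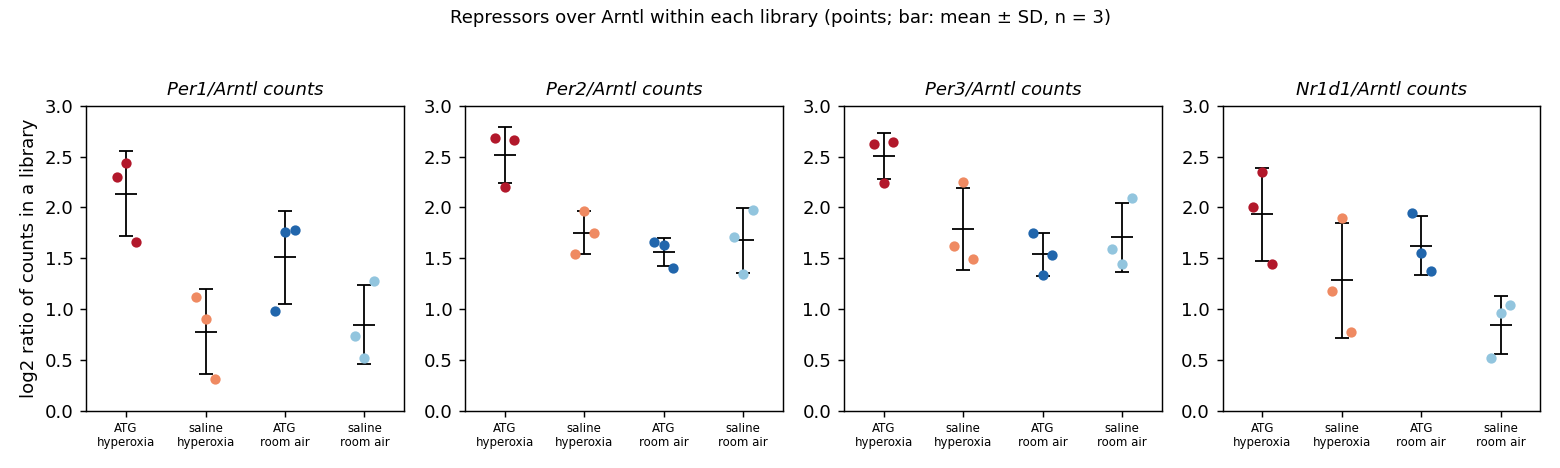
Within-library ratios of clock genes (vertical axis, log2 scale) in the 4 groups, with 1 point per library and bars for the mean and SD of 3 libraries. Per2 over Arntl averaged 2.52 on the log2 scale in ATG hyperoxia, 1.75 in saline hyperoxia, 1.56 in ATG room air and 1.68 in saline room air.

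Levels of different genes were compared per kilobase of annotated exon. In ATG hyperoxia the order was Nr1d1 at 19.3 CPM per kb, Per2 at 14.4, Cry1 at 12.4, Per1 at 11.99, Cry2 at 11.4, Nr1d2 at 11.2, Clock at 10.9, Per3 at 8.71, Npas2 at 2.00 and Arntl at 1.96. In saline room air it was Nr1d1 at 9.68 CPM per kb, Cry2 at 9.41, Per2 at 8.91, Clock at 8.90, Cry1 at 8.30, Nr1d2 at 7.08, Per3 at 5.55, Per1 at 5.22, Npas2 at 2.47 and Arntl at 2.19. In ATG hyperoxia, neighbours in the order overlapped except between Per2 and Cry1, Clock and Per3, and Per3 and Npas2. In saline room air, they overlapped except between Cry1 and Nr1d2, Nr1d2 and Per3, and Per1 and Npas2. In saline hyperoxia the order also opened with Nr1d1 (14.8 CPM per kb), before Clock (12.2) and Cry1 (11.7), and in ATG room air it opened with Nr1d1 (16.0) before Cry2 (9.97). Arntl and Npas2 were the 2 lowest in all 4 groups.

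Other genes of the pathway were taken from a list of 19, of which Ciart was not analysed here and 18 were tested. After ATG 4 of the 18 rose in hyperoxia and 14 did not pass, where 5.41% of all genes tested rose. After saline 1 rose and 17 did not pass, a share near the 4.70% of all genes tested. With injections averaged 6 rose and 12 did not pass, where 11.0% of all genes tested rose. None fell. The median log2 fold change of the 18 was 0.19 after ATG and 0.03 after saline. For ATG against saline and for the interaction, edgeR QL, DESeq2 and limma-voom each called 0 of the 18. At an unadjusted p under 0.05, edgeR QL counted 1 of them in hyperoxia (5.69% of all genes tested), 2 in room air (6.02%), 3 in the average (8.47%) and 1 in the interaction (2.95%).

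Bhlhe40 and Bhlhe41 encode DEC1 and DEC2, repressors that compete with the BMAL1 dimer at E-boxes. Bhlhe40 stood at 97.4, 111 and 93.0 CPM in ATG hyperoxia, 79.1, 74.4 and 87.4 CPM in saline hyperoxia lungs, 44.1, 63.3 and 64.3 CPM in ATG room air, and 49.4, 48.7 and 41.0 CPM in saline room air. Every hyperoxia library lay above every room air library, with log2 fold changes of 0.81 after ATG (SE 0.13, edgeR QL adjusted p = 0.0012) and 0.79 after saline (SE 0.13, edgeR QL adjusted p = 0.00242). Bhlhe40 is also known as a target of hypoxia and stress signals, and it shares 118 bases of exon with an antisense transcript. Bhlhe41 was higher after ATG by 0.74 (SE 0.18, edgeR QL adjusted p = 0.0137), and the 0.41 after saline did not pass (adjusted p = 0.179). Of its exons, 1280 bases are shared with a gene model on the opposite strand.

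The ROR receptors activate Arntl at the elements where REV-ERB represses it. Rora, which encodes ROR alpha, stood at 28.3, 26.1 and 27.9 CPM in ATG hyperoxia, 30.3, 23.4 and 20.0 CPM in saline hyperoxia lungs, 20.6, 18.1 and 21.8 CPM in ATG room air, and 18.1, 19.8 and 18.2 CPM in saline room air. The oxygen groups did not overlap after either injection. Rora passed neither after ATG (0.44, edgeR QL adjusted p = 0.0611) nor after saline (0.40, adjusted p = 0.11). It was higher with injections averaged, by 0.42 (SE 0.10, edgeR QL adjusted p = 0.0085), while Rorb lay between 0.463 and 2.64 CPM in the 12 libraries.

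The PAR bZIP factors DBP, TEF and HLF are outputs of the loop that act on D-boxes, where NFIL3 represses. Tef stood at 64.2, 57.5 and 61.9 CPM in ATG hyperoxia, 53.6, 57.4 and 55.0 CPM in saline hyperoxia lungs, 46.2, 27.8 and 34.7 CPM in ATG room air, and 47.5, 46.2 and 39.5 CPM in saline room air. It was higher in hyperoxia after ATG by 0.76 (SE 0.14, edgeR QL adjusted p = 0.00329), and after saline the value of 0.32 did not pass (SE 0.14, edgeR QL adjusted p = 0.201). Nfil3 was higher with injections averaged, by 0.32 (SE 0.09, edgeR QL adjusted p = 0.0216), but passed neither after ATG (0.25, adjusted p = 0.234) nor after saline (0.38, adjusted p = 0.087). Dbp, a strongly cycling gene in many tissues, was low in all 12 libraries, between 0.931 and 4.69 CPM, and shares 539 bases of exon with Sphk2 on the opposite strand. Its log2 fold change of 0.66 in the average (SE 0.29, edgeR QL adjusted p = 0.129) did not pass. The 7 genes of kinases and ubiquitin ligases that set the stability of PER and CRY proteins had log2 fold changes of hyperoxia between -0.28 and 0.36 after ATG and between -0.23 and 0.04 after saline, and none passed by edgeR QL, DESeq2 or limma-voom, with 0 at an unadjusted p under 0.05 in either. Hlf lay between 16.3 and 40.2 CPM in the 12 libraries, with log2 fold changes of -0.10 after ATG and -0.24 after saline that did not pass. Nampt, the clock-controlled gene of NAD synthesis, was higher after ATG by 0.45 (SE 0.09, edgeR QL adjusted p = 0.004), and the 0.20 after saline did not pass (adjusted p = 0.182).

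**Figure D5:**
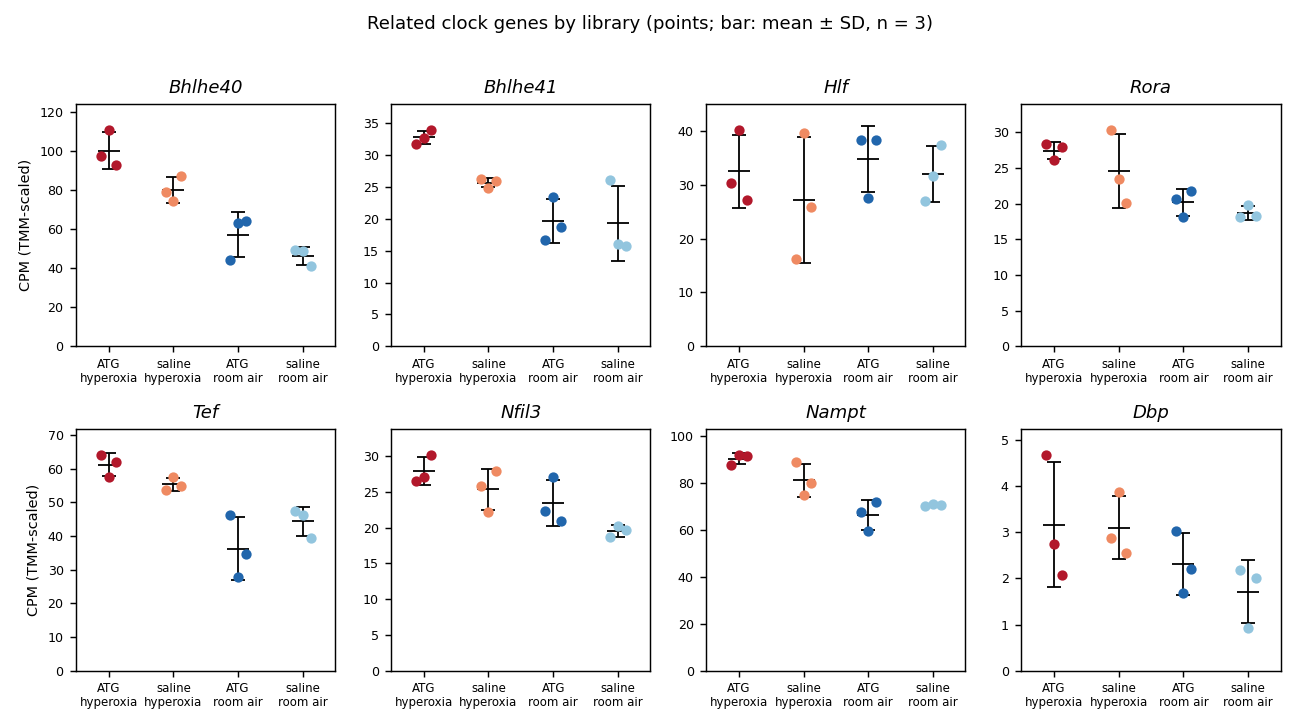
TMM-scaled CPM (vertical axis, from 0, its own scale in each panel) of 8 related clock genes in the 4 groups (horizontal axis), with 1 point per library and bars for the mean and SD of 3 libraries. Bhlhe40 lies higher in all 6 hyperoxia libraries than in all 6 room air libraries, and Dbp stays below 5 CPM.

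Genes whose log2 CPM followed a clock gene most closely over the 12 libraries were looked up among 11441 tested genes. These had a mean of at least 5 CPM, and predicted gene models and genes with clone-style symbols were left out. For Cry1 they were Ano1 (r = 0.981), Creg1 (0.979) and Lyve1 (0.977), and for Per2 they were Ifrd1 (0.935), Trappc8 (0.932) and Rnf4 (0.932). For Nr1d1 they were St13 (0.936), Lrrc8a (0.898) and Ddx54 (0.870), and for Arntl they were Rnf39 (0.840), Pcdhga7 (0.837) and Mynn (0.822). The 12 libraries share 4 groups, so these values describe likeness across groups as much as across libraries. None of the 9 other clock genes was among the 3 closest to Cry1, Per2, Nr1d1 or Arntl.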

How the data were processed

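RNA was isolated from 12 lung samples, amplified (Ovation RNA-Seq System V2), made into Nextera XT libraries and sequenced from both ends with reads of 75 bp on a HiSeq, per the labels' protocols. Raw counts per gene symbol were deposited by the authors, 1 column per library. The submitters' processing notes list Bowtie2, Cufflinks, DESeq and mm10, with no version. Which tool counted reads, with which annotation and whether by strand, is not given in the sources used here.

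Every column matched 1 sample by name. No pair of replicates agreed within sampling noise. Genes were kept by filterByExpr (minimum count 10, minimum total 15), which left 15761 with 99.96% of the counts, scaled by TMM and fitted by edgeR's quasi-likelihood test with a mean for each group (8 residual degrees of freedom, two-sided, Benjamini-Hochberg, threshold 0.05). The 7 contrasts were hyperoxia against room air and aurothioglucose against saline, each in both strata and averaged, and the interaction. The fit was tested on simulated data. The fits used edgeR 4.0.16 under R 4.3.3, and the alternatives DESeq2 1.42.0 and limma 3.58.1. Exon lengths and overlaps came from GENCODE vM21, and positions and promoters from RefSeq GRCm38.p6.

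The 10 genes, the related and marker lists and the alternatives were chosen with earlier results of these data known. All 10 genes were named whatever their p, as were Dbp, Tef, Hlf and Nfil3, with any other gene of the related list past the threshold. A gene of the related list is not reported here, and the list's counts leave it out. For likeness, predicted gene models and genes with clone-style symbols were left out, and the 3 genes with the highest r to Per2, Cry1, Arntl and Nr1d1 were named. The genes named beside Per1 (Nr4a1, Dusp1, Sgk1, Fosb, Fkbp5, Klf9, Tsc22d3, Zbtb16, Ddit4, Egr1) and the lung markers named singly were picked from the lists after their values were seen. The values of the 10 clock genes and the counts of all genes called were recomputed by limma-voom and DESeq2, with RLE size factors and with no filter. They were also recomputed with a replicate block, with sex as a covariate and on only the 6 samples compared. Further fits left out libraries rich in heart or muscle markers, and each library in turn. Counts of the related list are given by limma-voom and DESeq2 only. Values of its single genes and of the marker lists are from edgeR QL over all libraries alone.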

Additional observations from a re-analysis of the deposited data

How the results depend on the processing

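Of 1440 values of the 10 clock genes under other settings, 1376 kept their direction and side of the threshold, 14 lost a call, 13 gained one and 37 changed sign, and none of these 37 was past the threshold in either fit. The rises of Per2, Per3 and Cry1 in hyperoxia after ATG and of Clock after saline passed under all 21 other settings, with log2 fold changes of 0.82 to 0.94, 0.74 to 0.96, 0.45 to 0.55 and 0.38 to 0.55. Without the 3 heart- or muscle-rich libraries, 1 clock gene was called after saline in place of 2, and 781 of all genes tested in place of 1449, with fewer samples in the fit.

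The replicate numbers did not pair the samples (r between -0.156 and 0.28 over 18 same-numbered pairs, 2 of them over 0.1, and 15 of 36 comparisons closest to the same number). With the replicate block, Nr1d2 in hyperoxia after ATG stood at 0.50 (edgeR QL adjusted p = 0.0603) and Clock at 0.31 (edgeR QL adjusted p = 0.0466), and the clock genes called were 4 after ATG, 2 after saline and 5 in the average.

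For ATG against saline, all genes called were few and moved with the setting. In hyperoxia they were 11 by DESeq2, 3 by limma-voom, 3 with no filter, and 0 with sex as a covariate or without the 2 or the 3 libraries, in place of 1. In room air they were 16 by DESeq2, in place of 0. In the average they were 94 by DESeq2, 24 with no filter, 4 with sex as a covariate, 3 with RLE size factors, 3 with the block, 2 without the 2 heart-rich libraries and 0 without the 3, in place of 7. The cause was not tested.

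On leaving out each library in turn, all genes called ran from 1150 to 2045 for hyperoxia after ATG, 740 to 1704 after saline, 0 to 2 for ATG in hyperoxia, 0 to 1 in room air and 0 to 24 in the average. The clock genes called ran from 3 to 5 for hyperoxia after ATG, 2 to 3 after saline and 4 to 6 in the average, and were 0 for ATG and the interaction throughout.

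Values near 0 changed sign. The interaction of Cry2 was 0.00074 by DESeq2, 0.00081 with RLE size factors, 0.066 with sex, 0.11 without the 2 heart-rich libraries and 0.23 without the 3, and ran from -0.14 to 0.10 over the left-out libraries. That of Cry1 was 0.018 with sex, 0.021 without the 2 and 0.017 without the 3, and ran from -0.044 to 0.055, and that of Per1 was -0.053 without the 2. Hyperoxia after ATG gave Nr1d1 -0.068 without the 2 and -0.059 without the 3 (-0.068 to 0.53 over the left-out libraries), and after saline it gave Per1 -0.18 without the 3 (-0.18 to 0.33). In the average of hyperoxia, Arntl ran from -0.010 to 0.14 and Npas2 from -0.18 to 0.012. For ATG in room air, Clock was 0.026 with sex and ran from -0.093 to 0.058, Arntl from -0.19 to 0.070 and Npas2 from -0.14 to 0.23, and in hyperoxia Cry2 ran from -0.056 to 0.18.

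With 3 libraries per group, the 95% interval of Per1 for ATG in hyperoxia spans 0.42 to 1.64 on the log2 scale, and that of Cry1 -0.11 to 0.28. The lowest count of any clock gene in a library was 133, for Npas2.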
